A study of Homo sapiens with 11 samples.

Results

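TERT, the catalytic subunit of telomerase, was followed in MOLM-13 cells together with the RNA and proteins that work with it at chromosome ends. The group was defined by gene symbol and holds 10 of the 38557 genes in the count table: TERT, TERC, WRAP53 and RTEL1 on the telomerase side, and POT1, TERF1, TERF2, TERF2IP, TINF2 and ACD, which together encode the 6 proteins of shelterin. It was taken up because TERT had 1 of the largest falls when PR-957 was added to MI-503, so the members' values in that comparison, and those of TERT in the combination against DMSO, are given as a description and without a test. MOLM-13 is a human acute myeloid leukemia line with a rearranged KMT2A gene. All cells carried that rearrangement, and they were kept for 72 h in DMSO, the diluent control (4 libraries), in the Menin inhibitor MI-503 at 1 µM (4 libraries), or in MI-503 at 1 µM plus PR-957 at 100 nM (3 libraries, with the replicate numbers 1, 2 and 4). PR-957, also named ONX-0914, inhibits the immunoproteasome subunit PSMB8, and the group that received both compounds is referred to as the combination. No library received PR-957 alone, and all 11 libraries came from a single cell line. The sources used here do not say whether replicates were separate cultures, so p-values measure the spread between these libraries, which may be technical.

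Telomerase lengthens chromosome ends by copying a short template inside its RNA subunit, TERC, into DNA with the reverse transcriptase TERT. Most somatic cells express little TERT, whereas most cancers, leukemias among them, have reactivated it. WRAP53 encodes TCAB1, which carries the enzyme to Cajal bodies and on to telomeres, and RTEL1 is a helicase that opens telomeric loops. Shelterin coats the telomeric repeat: TERF1 and TERF2 bind the double strand, POT1 binds the single-stranded overhang, ACD (TPP1) links POT1 to the rest and recruits telomerase, TINF2 (TIN2) bridges the proteins, and TERF2IP (RAP1) binds TERF2.

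TERT transcription starts on the minus strand of chromosome 5. The hg38 annotation of the deposited counts places the gene at chr5:1253148-1295068, with 4058 exon bases, of which none is shared with another gene. The stretch from 250 bases before the start to the start base itself is printed because TERT is the member that moved most and because several factors that bind its promoter are described below (RefSeq, GRCh38.p14, chr5:1295068-1295318, minus strand). Capitals mark the E-box CACGTG, the site read by MYC and MAX, and the GC box GGGCGG, the site read by SP1, which appears here as its reverse complement.

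TERT promoter: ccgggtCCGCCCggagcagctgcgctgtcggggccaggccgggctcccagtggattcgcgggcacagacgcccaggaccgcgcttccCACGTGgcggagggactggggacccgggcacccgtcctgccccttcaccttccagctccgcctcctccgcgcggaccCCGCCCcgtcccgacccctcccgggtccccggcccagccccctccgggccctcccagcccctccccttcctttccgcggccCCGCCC

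Counting the start base as 1 and the base before it as -1, the E-box lies from -163 to -158, and GC boxes begin at -244, -86 and -5. The ETS motif CCGGAA had no match in the window. Over both strands of 35116 promoter windows of 300 bp in the same table (250 bases before the start and 50 from it on), 7.26% held the E-box, 45.0% the GC box and 17.2% the ETS motif. None of the 3 motifs overlapped another in the TERT window. G and C made up 78.8% of the 250 bases before the TERT start, against a median of 58.0% over all windows. Of the 10 members, 7 had at least 1 window in the table (TERT, WRAP53, RTEL1, POT1, TERF2IP, TINF2 and ACD). The E-box was found in 1 of these 7, TERT, the GC box in 7 and the ETS motif in 4. These matches describe letters of the reference genome, not the DNA of MOLM-13 cells, and do not show binding.

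The libraries held 18.9 to 41.2 M counted fragments, and 14683 genes had enough counts to be tested. Of the markers of MOLM-13 cells, FLT3, CD33, MEIS1, HOXA9 and MPO were present in every library, whereas CD3E, MS4A1, HBB and GATA1, markers of other blood lineages, had 0 to 3 counts in each. NCAM1 was well expressed, with a mean of 159 CPM in DMSO. Combination replicate 1 stood apart from the other 2 combination libraries. The chi-square of its counts over genes per degree of freedom was at least 20.2 against them, compared with 4.58 between replicates 2 and 4 and with 1.72 to 5.90 within the other groups.

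In DMSO, 3 of the 6 shelterin genes, TERF2IP, ACD and TERF2, were expressed above TERT without overlap, the ranges of TERF1 and POT1 overlapped that of TERT, and TINF2 was far below it. Levels were compared between genes as read counts scaled to library totals (CPM) per kb of exon that no other gene shares (mean ± SD, n = 4). TERF2IP came first at 29.0 ± 1.34, followed by ACD at 19.2 ± 1.08, TERF2 at 14.7 ± 0.526, TERF1 at 8.82 ± 0.372 and POT1 at 7.74 ± 0.506. TERT had a level of 6.44 ± 1.66, WRAP53 of 5.38 ± 0.195 and RTEL1 of 5.24 ± 0.520. The ranges of neighbors in this order did not overlap down to POT1, whereas the ranges of POT1 and TERT, of TERT and WRAP53 and of WRAP53 and RTEL1 overlapped. Among all tested genes, ranked by mean CPM over the 11 libraries, TERT stood at the 48.8th percentile, so it was a gene of middle abundance in these cells.

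**Figure D1:**
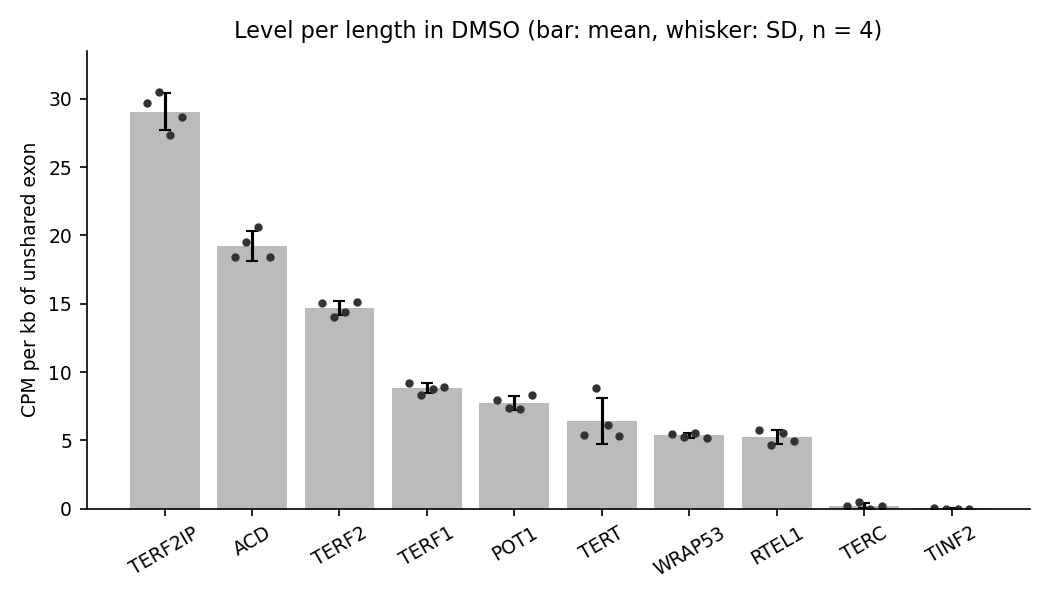
Level of the 10 members in DMSO, in CPM per kb of exon not shared with another gene. Bars are means and whiskers SD over 4 libraries, and points are single libraries. TERF2IP, ACD and TERF2 lie above the rest, TERT at 6.44 overlaps POT1 and WRAP53, and TERC and TINF2 are near 0.

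TERC and TINF2 were close to undetected. TERC, a noncoding RNA gene at chr3:169764610-169765060, had 3, 5, 0 and 2 counts in DMSO replicates 1 to 4, 3, 4, 3 and 3 in MI-503 and 3, 5 and 5 in the combination. The labels give the sequenced molecule as polyA RNA, and mature TERC does not keep a poly(A) tail. TINF2, at chr14:24239640-24242674, had 5, 1, 1 and 1 counts in DMSO, 3, 3, 0 and 1 in MI-503 and 2, 3 and 1 in the combination. The annotation lists TINF2 on 2 contigs, chromosome 14 and a second contig that repeats this stretch. Of the 42 genes listed on both of these contigs, 22 had 0 counts in all libraries and 92.9% had at most 110 in total, against 54.5% of the 66 genes within 1 Mb that are listed on a single contig. Fragments mapping to more than 1 place had been left out of the counts, and the part of this setting in the TINF2 counts was not tested. Exact two-sided permutation tests of CPM gave no difference from DMSO, with p = 0.6 for TERC and 0.8 for TINF2 in MI-503 (n = 4 against 4) and p = 0.457 and 0.971 in the combination (n = 3 against 4). After Benjamini-Hochberg adjustment over these 4 permutation tests each p was 0.971, and 0.0286 is the smallest p these designs allow. With 0 to 5 counts per library, these tests say little about either gene.

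TERT was lowest in the combination. Its level was 22.1, 36.0, 24.9 and 21.5 CPM in DMSO replicates 1 to 4, 22.4, 24.9, 16.9 and 19.8 CPM in MI-503 replicates 1 to 4, and 6.84, 9.13 and 6.02 CPM in combination replicates 1, 2 and 4. DMSO and MI-503 overlapped, with DMSO replicate 2 above all other libraries, whereas the 3 combination libraries lay below all 8 others. These levels rest on 409 to 857 counts per library in DMSO and MI-503 and on 162 to 290 in the combination. Means were 26.1 ± 6.75 (SD, n = 4), 21.0 ± 3.44 (n = 4) and 7.33 ± 1.61 CPM (n = 3). Fewer cells expressing a gene and less RNA per cell cannot be told apart in these bulk libraries.

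**Figure D2:**
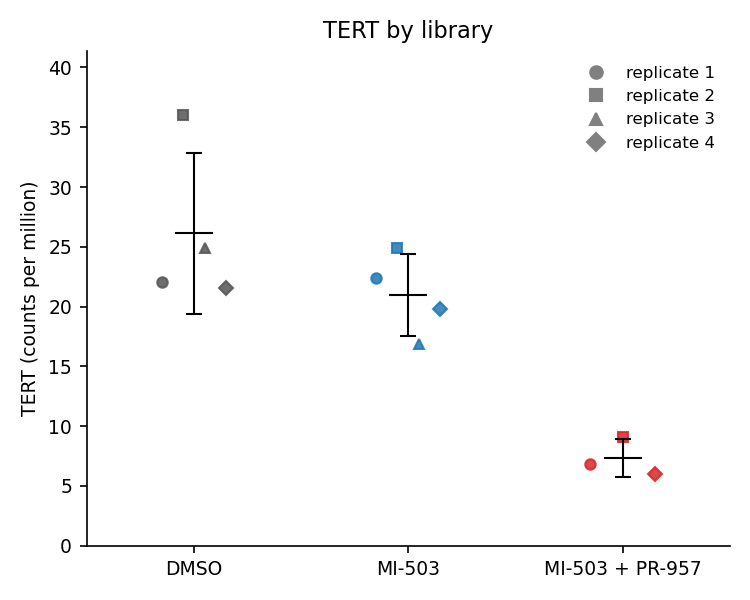
TERT level in each library, in CPM, by treatment group. Marker shapes give the replicate number, and horizontal lines with whiskers the mean and SD. The combination libraries sit between 6.02 and 9.13 CPM, below the lowest of the other libraries at 16.9 CPM.

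With MI-503 alone, TERT had a log2 fold change of -0.31 (SE 0.15) against DMSO and was not called (adjusted p = 0.0993, edgeR quasi-likelihood test). This value rests in part on DMSO replicate 2, without which it was -0.11 (adjusted p = 0.468 by the same test). It was called in 2 of 20 alternative settings, among them the fit without a filter on low counts (-0.29, edgeR adjusted p = 7.05e-04). In the combination, TERT was 3.62-fold lower than in DMSO (log2 fold change -1.85, SE 0.18) and 2.92-fold lower than in MI-503 (-1.55, SE 0.18). Both values share the combination libraries that led to the choice of TERT, so no test is given. Without combination replicate 1 they were -1.79 and -1.54. In the ranking of log2 fold changes against MI-503, TERT was number 45 from the lowest of 14683 tested genes and number 4 of the 10039 that averaged 5 CPM or more. Its nearest annotated neighbors, the amino acid transporter gene SLC6A18 at 6959 bp and the microRNA gene MIR4457 at 14242 bp, had 0 or 1 counts per library.

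Among the other telomerase genes, WRAP53 fell with MI-503, from a mean of 22.6 to 19.2 CPM, and had 19.0 CPM in the combination. WRAP53 (chr17:7686071-7703502) had 23.1, 21.9, 23.5 and 21.9 CPM in DMSO, 17.9, 20.3, 17.1 and 21.5 CPM in MI-503 and 20.5, 18.2 and 18.2 CPM in the combination. All 7 treated libraries lay below the 4 DMSO libraries. The log2 fold change against DMSO was -0.23 (SE 0.07) in MI-503 and -0.25 (SE 0.08) in the combination, with edgeR quasi-likelihood adjusted p of 0.0139 and 0.0123. Both calls were lost with upper-quartile scaling (edgeR adjusted p = 0.0711 and 0.0677), and the first also without MI-503 replicate 1 (0.0507) or 3 (0.0578).

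RTEL1 did not pass the test in either comparison with DMSO. RTEL1 (chr20:63657810-63696253) had 2.73, 2.20, 2.61 and 2.32 CPM in DMSO, 2.82, 2.15, 2.85 and 3.35 CPM in MI-503 and 2.24, 2.56 and 2.12 CPM in the combination, and the 3 groups overlapped. Its log2 fold change against DMSO was 0.16 (SE 0.15) in MI-503 and -0.12 (SE 0.17) in the combination, with edgeR quasi-likelihood adjusted p of 0.414 and 0.565. Of its 5197 exon bases, 4726 are shared with the readthrough gene RTEL1-TNFRSF6B, so its counts come from 471 bases and are an uncertain measure of the gene.

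TERF1, which binds the telomeric double strand and limits elongation, had the smallest adjusted p of the shelterin genes in both comparisons with DMSO. TERF1 (chr8:73008856-73048123) had 41.3, 37.3, 39.1 and 39.9 CPM in DMSO, 28.0, 30.8, 29.0 and 31.1 CPM in MI-503 and 35.5, 29.8 and 30.6 CPM in the combination. Every treated library lay below every DMSO library, and combination replicate 1 was the highest of the treated ones. The log2 fold change against DMSO was -0.41 (SE 0.06) in MI-503 and -0.29 (SE 0.07) in the combination, with edgeR quasi-likelihood adjusted p of 3.43e-05 and 8.28e-04. Both calls held in all 20 alternative settings that were run.

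ACD fell as well in both treated groups. ACD (chr16:67657512-67660832) had 37.5, 39.9, 42.1 and 37.6 CPM in DMSO, 36.4, 34.4, 37.1 and 34.3 CPM in MI-503 and 32.3, 34.4 and 33.7 CPM in the combination. The lowest DMSO library was above the highest treated library. Its log2 fold change against DMSO was -0.14 (SE 0.05) in MI-503 and -0.23 (SE 0.06) in the combination, with edgeR quasi-likelihood adjusted p of 0.0276 and 0.00163. The call in the combination held in all 20 alternative settings, whereas that in MI-503 was lost in 14 of 20, 7 of them with a single library left out (DMSO 2 or 3, MI-503 2 or 4, or any of the combination; edgeR adjusted p from 0.0576 to 0.107).

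TERF2IP was called in MI-503 but not in the combination. TERF2IP (chr16:75647737-75657442) had 68.4, 70.3, 63.1 and 66.2 CPM in DMSO, 61.2, 63.3, 61.8 and 56.9 CPM in MI-503 and 66.3, 65.3 and 61.8 CPM in the combination. MI-503 replicate 2 was above DMSO replicate 3, so the groups overlapped. The log2 fold change against DMSO was -0.14 (SE 0.05) in MI-503 and -0.06 (SE 0.05) in the combination, with edgeR quasi-likelihood adjusted p of 0.0202 and 0.352. The MI-503 call was lost in 13 of 20 alternative settings, 6 of them with a single library left out (DMSO 1 or 2, MI-503 4, or any of the combination; edgeR adjusted p from 0.0594 to 0.0871).

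POT1 and TERF2 were called in neither comparison with DMSO. POT1 (chr7:124822386-124929983) had 33.5, 30.8, 30.5 and 34.9 CPM in DMSO, 30.9, 31.8, 33.1 and 30.4 CPM in MI-503 and 35.8, 33.4 and 34.0 CPM in the combination. Its combination libraries lay above all MI-503 libraries and overlapped those of DMSO. The log2 fold change against DMSO was -0.04 (SE 0.06) in MI-503 and 0.09 (SE 0.06) in the combination, with edgeR quasi-likelihood adjusted p of 0.571 and 0.200, and with upper-quartile scaling the second passed (0.16, edgeR adjusted p = 0.0234). TERF2 (chr16:69355567-69386007) had 42.9 to 46.2 CPM in DMSO, 41.6 to 47.7 CPM in MI-503 and 41.5 to 43.9 CPM in the combination. Its log2 fold change was 0.0003 (SE 0.05) and -0.06 (SE 0.06), with edgeR quasi-likelihood adjusted p of 0.996 and 0.375. POT1 shares 111 exon bases with POT1-AS1 and ACD 58 with CARMIL2, both on the opposite strand.

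**Figure D3:**
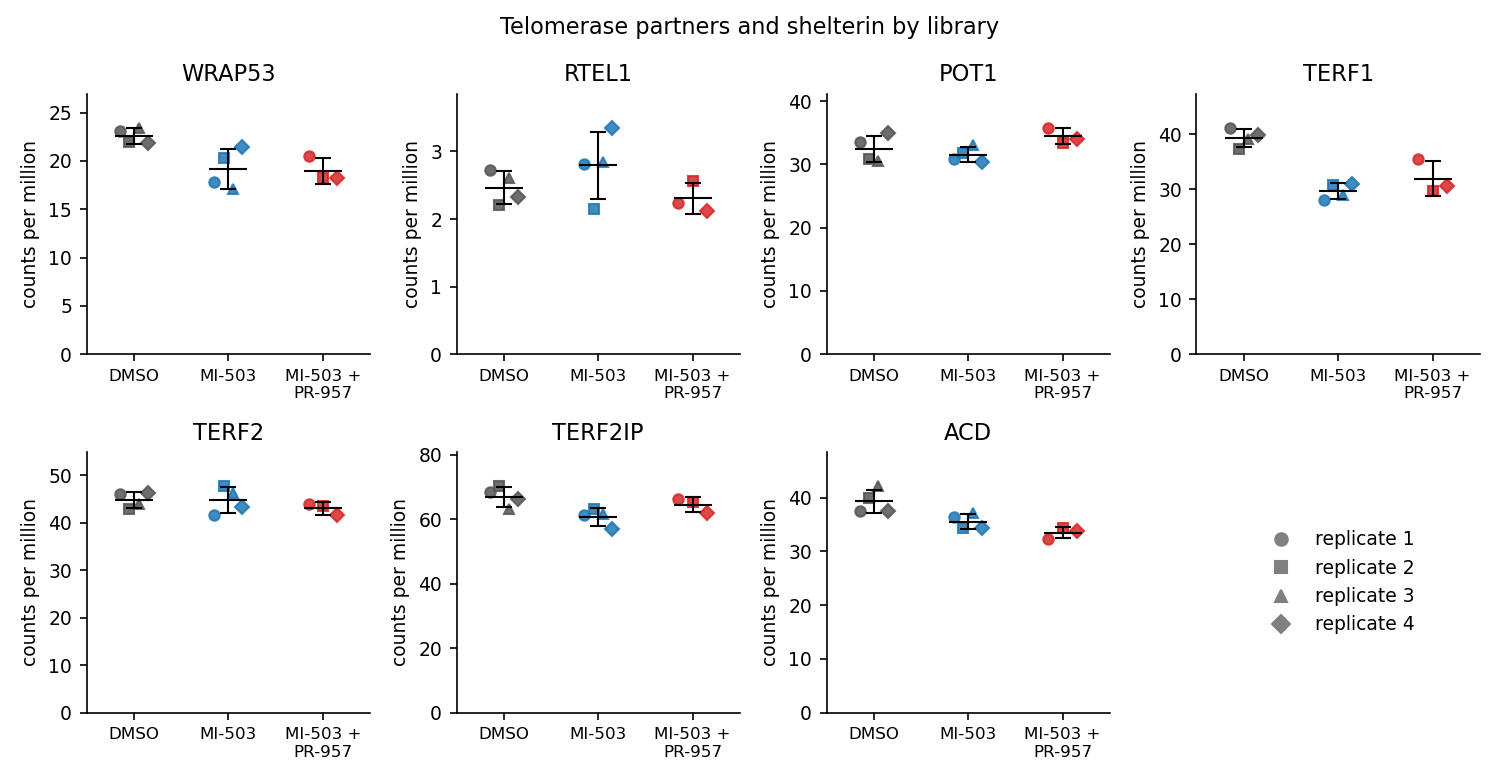
Levels of WRAP53, RTEL1 and the 5 tested shelterin genes in each library, in CPM, by treatment group, with marker shapes for the replicate number and lines with whiskers for mean and SD. TERF1 drops from 39.4 CPM in DMSO to 29.7 CPM in MI-503, and the other genes move by less.

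Counted together, 8 of the 10 members were tested. In MI-503 against DMSO 4 of them were called lower (WRAP53, TERF1, TERF2IP and ACD) and 0 higher, where 29.3% of all tested genes were called lower and 22% higher. Their groups did not overlap for 3 lower and 0 higher members, beside 29.1% and 21.2% of all tested genes. Their median log2 fold change was -0.14, against -0.03 over all tested genes. The count was 1, TERF1, with upper-quartile scaling, under which 22.9% of genes were called lower and 27% higher, and 2 with RLE scaling. In the combination against DMSO, TERT was left out of the count, and of the other 7 tested members 3 were called lower (WRAP53, TERF1 and ACD) and 0 higher, where 32.8% and 31.7% of all tested genes were. The median of these 7 was -0.12 against 0.01. The same 3 were the ones without overlap between the groups, beside 31.2% lower and 29.3% higher of all tested genes. With upper-quartile scaling TERF1 and ACD stayed called lower, WRAP53 was no longer called and POT1 was called higher. Under that scaling 28.3% and 36.6% of genes were called lower and higher. In the combination against MI-503, the comparison that chose TERT, no calls of members are counted. Of all tested genes 23.8% were called lower and 23.6% higher there, and 23.7% and 23.8% had no overlap between the groups in these directions. The 7 members other than TERT had log2 fold changes between -0.27 (RTEL1) and 0.13 (POT1) in that comparison. The 2 comparisons with DMSO share the DMSO libraries, and those with the combination share its libraries.

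**Figure D4:**
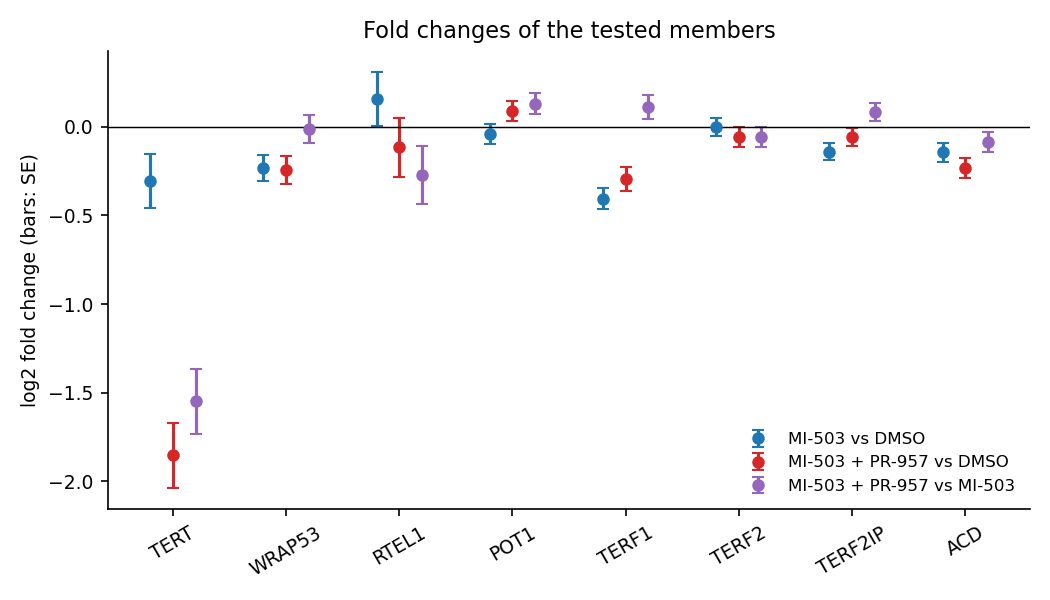
Log2 fold change of each tested member in the 3 comparisons, with whiskers for the SE. TERT lies at -1.85 and -1.55 in the comparisons that involve the combination, and every other value is between -0.41 and 0.16.

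Genes listed for telomerase assembly and TERC processing fell with MI-503. This list holds 14 genes, and 13 were tested. It does not separate factors that promote the enzyme from factors that limit it, and PINX1 and TENT4B are on it. Their log2 fold changes in MI-503 were -0.37 and -0.32. All 13 were called lower against DMSO, both in MI-503 (median log2 fold change -0.35) and in the combination (median -0.59). Of all tested genes, 29.3% and 32.8% were called lower there. In the combination against MI-503, 7 were called lower and 0 higher, with a median of -0.20. Across all tested genes 23.8% were called lower and 23.6% higher in that comparison. DKC1, the pseudouridine synthase dyskerin that stabilizes TERC, had 260 ± 13.6 CPM in DMSO, 205 ± 9.19 in MI-503 and 146 ± 5.89 in the combination. Its log2 fold change was -0.84 (SE 0.05) in the combination against DMSO and -0.49 (SE 0.05) against MI-503, with edgeR quasi-likelihood adjusted p of 3.85e-10 and 9.14e-07. GAR1, a partner of dyskerin, went from 71.9 ± 2.36 to 49.7 ± 3.04 and 39.2 ± 3.68 CPM. NHP2, of the same complex, was lower in the combination than in MI-503 by a log2 fold change of -0.50 (SE 0.09), with an edgeR quasi-likelihood adjusted p of 2.12e-04. RUVBL1, an ATPase needed for assembly, fell with MI-503, from 124 ± 2.78 to 81.7 ± 3.61 CPM (log2 fold change -0.60, SE 0.05, edgeR adjusted p = 2.29e-08), and was at 72.0 to 82.2 CPM in the combination. TGS1, which modifies the cap of TERC, had a log2 fold change of -0.40 in MI-503 (SE 0.05, edgeR adjusted p = 5.12e-06).

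The CST complex and the primase that fill in the second telomeric strand split in direction. Of 6 tested genes, 4 were called lower and 2 higher in MI-503 and in the combination against DMSO, with medians of -0.23 and -0.42. Of all tested genes, 29.3% and 32.8% were called lower and 22% and 31.7% higher. The 2 of 6 called higher in the combination are near that share. On this list, the genes called lower were subunits of DNA polymerase alpha and primase, which also replicate the rest of the genome. Those called higher were CTC1 and STN1 of CST. POLA1, the catalytic subunit, went from 66.6 ± 1.85 CPM in DMSO to 49.4 ± 1.45 and 36.5 ± 2.12. CTC1 went the other way, from 28.9 ± 1.27 to 36.7 ± 1.13 and 44.7 ± 4.69 CPM. In the combination against MI-503, 3 were lower and 1, CTC1, was higher, by a log2 fold change of 0.28 (SE 0.06, edgeR quasi-likelihood adjusted p = 0.00199). Across all tested genes 23.8% were called lower and 23.6% higher there, and 1 of 6 is near that share.

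Of 19 repair and signaling factors that also act at telomeres, 11 were called lower and 1 higher in MI-503, 11 and 4 in the combination against DMSO, and 10 and 5 in the combination against MI-503. Over all tested genes, 29.3%, 32.8% and 23.8% were called lower and 22%, 31.7% and 23.6% higher in these comparisons, and the 5 of 19 called higher in the last are near that share. BLM, a helicase that resolves recombination intermediates, had the smallest adjusted p in all 3 comparisons and went from 106 ± 6.19 CPM in DMSO to 67.0 ± 5.02 and 44.4 ± 2.81. EXO1, the exonuclease that resects chromosome ends, went from 74.4 ± 2.24 to 48.5 ± 3.22 and 30.5 ± 4.22 CPM. ZBTB48, which binds telomeric repeats and favors shorter telomeres, rose instead, from 31.1 ± 1.52 to 36.0 ± 0.797 and 51.3 ± 3.90 CPM. Its log2 fold change in the combination against MI-503 was 0.51 (SE 0.06, edgeR quasi-likelihood adjusted p = 2.04e-06). Of the 38 tested genes of these 3 lists, 28 were called lower in MI-503 against DMSO, 25 with RLE and 23 with upper-quartile scaling. Their genes called higher in the combination against MI-503 numbered 6, and 3 without combination replicate 1.

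Among 14 factors known to act on TERT transcription, MYC and MXD1 moved in opposite directions. MYC, an activator through the E-box, had 656 ± 10.3 CPM in DMSO, 495 ± 24.4 in MI-503 and 372 ± 13.7 in the combination. MXD1, which competes with MYC for MAX and represses, had 20.7 ± 2.09, 31.9 ± 1.59 and 52.2 ± 3.24 CPM. MAX was called in none of the comparisons. The log2 fold change in the combination against MI-503 was -0.41 (SE 0.05) for MYC and 0.71 (SE 0.07) for MXD1, with edgeR quasi-likelihood adjusted p of 1.88e-06 and 3.66e-07. WT1, described as a repressor of TERT in some cells, fell as well, with 81.1 ± 2.60, 56.4 ± 4.58 and 28.9 ± 0.821 CPM, and its log2 fold change against MI-503 was -0.96 (SE 0.06, edgeR quasi-likelihood adjusted p = 2.22e-09). The ETS-family factor GABPA with its partner GABPB1 and the zinc finger factor SP1 were also lower in the combination than in MI-503. So were E2F1, CTCF and MEN1 (Menin), described as repressors of TERT in some cells. These log2 fold changes lay between -0.45 (E2F1) and -0.13 (SP1). SP1, ETS2 and MAX were among those not called in MI-503 against DMSO. Over the list 9 were lower and 1 higher in MI-503, 12 and 1 in the combination against DMSO, and 10 and 1 in the combination against MI-503, with medians of -0.16, -0.38 and -0.24. Across all tested genes 29.3%, 32.8% and 23.8% were called lower and 22%, 31.7% and 23.6% higher in these comparisons. Factors described as activators of TERT and factors described as repressors were among those that fell, and their part in the TERT level was not tested.

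**Figure D5:**
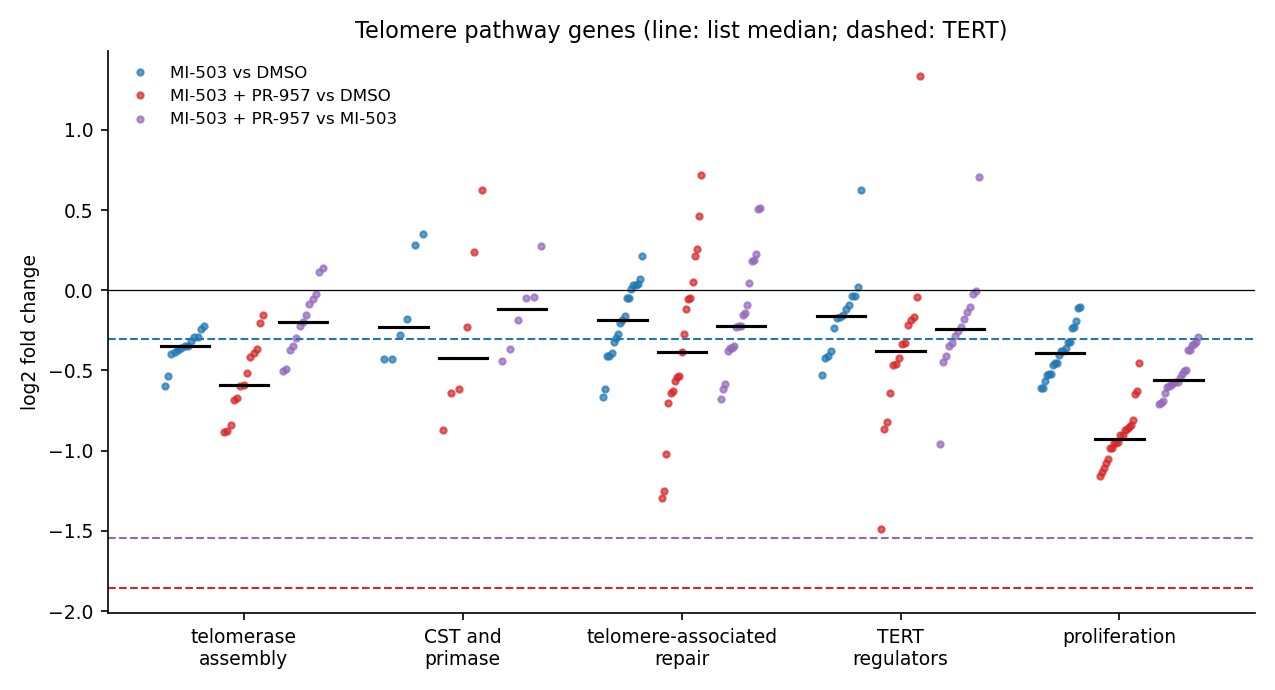
Log2 fold changes of the telomerase assembly, CST and primase, telomere-associated repair, TERT regulator and proliferation genes in the 3 comparisons. Points are genes, black lines list medians and dashed lines TERT in the comparison of that color. TERT, at -1.55 in the combination against MI-503, lies below every gene of these lists in that comparison. It was chosen for its fall there, so this order carries no weight.

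Proliferation and differentiation markers moved with these changes. All 20 proliferation genes were called lower in the combination against DMSO and against MI-503, and 18 in MI-503 against DMSO. Of all tested genes, 32.8%, 23.8% and 29.3% were called lower in these comparisons. The summed level of the 20 genes was 5649 to 6257 CPM in DMSO, 4505 to 4928 in MI-503 and 3052 to 3386 in the combination, without overlap. Their log2 fold changes in the combination against MI-503 ran from -0.71 to -0.29. TERT was chosen for its large fall in that comparison, so no weight is put on its lower value there. The summed level of 15 myeloid differentiation markers was 764 to 946 CPM in DMSO, 1368 to 1491 in MI-503 and 1268 to 3536 in the combination, and 12 of the 14 tested were called higher in MI-503 and 10 in the combination against DMSO. In the combination against MI-503, 7 were called higher and 4 lower (MPO, CTSG, FCGR1A and ELANE, named after their values were seen). Of all tested genes, 22% and 31.7% were called higher in MI-503 and in the combination against DMSO. Against MI-503 the shares were 23.6% higher and 23.8% lower, and the 4 called lower are near the latter. Lysozyme (LYZ), also named afterwards, made up much of the sum, with 370 to 381 CPM in MI-503 and 599 to 2511 in the combination. The part of cycling and of differentiation in the levels of TERT and its partners was not tested.

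The genes whose levels followed TERT most closely were sought among 12463 other tested genes that averaged 1 CPM or more, by Pearson's r of log2 CPM over the 11 libraries. The points share treatment groups, so r is a description. The highest were WWC1 (0.983), GTPBP3 (0.980), MATK (0.978), DHTKD1 (0.977) and IVNS1ABP (0.973). WWC1, a regulator of Hippo signaling, had a mean of 20.6 CPM in DMSO, 18.2 in MI-503 and 10.9 in the combination. The lowest were BRD3OS (-0.99), GLG1 (-0.99), IGF2R (-0.98), GCLM (-0.98) and ANXA7 (-0.98). GCLM, a subunit of the enzyme that limits glutathione synthesis, had means of 28.8, 31.9 and 70.9 CPM. Within the telomere group, r with TERT was highest for ACD, at 0.73, and lowest for POT1, at -0.68, and the other 5 tested members lay between 0.14 and 0.48.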

How the data were processed

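RNA of MOLM-13 cells was sequenced as read pairs from TruSeq RNA libraries. The authors deposited unnormalized counts, the number of fragments assigned to each gene. The submitters' processing notes name Trimmomatic 0.39, STAR 2.7.10a, featureCounts 2.0.1, DESeq2 and hg38. Per the file headers, the authors counted RefSeq exons without regard to strand, leaving out fragments with several mapping places or genes, on alignments whose filter is not described. These settings leave out fragments in exons that genes share. They can also lower the counts of genes that have copies on other contigs, which was not tested. The joined count table differed from the single-library counts in 0 cells. Deposited tables of the authors' own comparisons (log2 fold changes and p-values) were not used.

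All 11 libraries entered 1 model in edgeR 4.0.16 (R 4.3.3) with 1 mean for each group and TMM factors. Of 38557 genes, 14683 passed filterByExpr (minimum count 10, minimum total 15). Two-sided quasi-likelihood tests were adjusted by Benjamini-Hochberg across the tested genes, and calls were made below an adjusted p of 0.05. CPM refer to TMM-scaled totals, and a prior count of 0.5 was added for log2 CPM. SE is that of the log2 fold change. Alternatives used RLE and upper-quartile scaling, other filters, DESeq2 1.42.0, limma-voom 3.58.1, a threshold of 0.01, the compared groups alone, a replicate block and each library left out. The fits were tested on simulated data. Depth was 18.9 to 41.2 M fragments, and the biological coefficient of variation was 6.14%. Precision is lowest for genes with few counts.

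Named were all members, the 3 genes of each telomere list with the smallest adjusted p per comparison, the TERT regulators, the neighbors of TERT, genes sharing exons with members, and the 5 genes most and least like TERT. Some genes of these lists are not reported here. STN1, PINX1 and TENT4B were named after their values were seen. The members and lists were chosen with earlier results of these data known.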

Additional observations from a re-analysis of the deposited data

Results flagged for a closer look

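Each group of 4 libraries was searched, for each of the 10 members, for a library far from the other 3, in 20 groups in all, and chance gives about 1 in 20. A single value stood out. TINF2 had 0.169 CPM in DMSO replicate 1, from 5 counts, whereas DMSO replicates 2, 3 and 4 had 1 count each. The gap to the nearest library was 0.988 of the group's range, above the critical ratio of 0.829. TERT in DMSO replicate 2, although the highest of its group at 36.0 CPM, did not pass this limit.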

How the results depend on the processing

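The members called lower in MI-503 against DMSO numbered 4, but 2 with RLE scaling, with a minimum of 1 CPM in 3 libraries, with DESeq2 and with only the compared groups, 1 with upper-quartile scaling and 1 at an adjusted p under 0.01, and 2 to 4 with single libraries left out. TERF1 was called lower against DMSO in both treated groups in every setting run. The members called higher in the combination against DMSO numbered 0, but 1 with upper-quartile scaling. TERT in MI-503 against DMSO had an edgeR adjusted p of 0.0993 and was called with no filter (-0.29, edgeR adjusted p = 7.05e-04) and with the replicate block (-0.30, edgeR adjusted p = 0.00863), and the cause was not tested. With single libraries left out it ran from -0.40 to -0.11. TERT kept its sign in every setting, from -2.01 to -1.66 in the combination against DMSO and from -1.74 to -1.45 against MI-503. Pathway genes called higher in the combination against MI-503 ran from 3 to 6 with single libraries left out.

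Changes of sign concerned values that were not called. For MI-503 against DMSO, POT1 reached 0.022 with upper-quartile scaling, 0.0097 with a minimum of 1 CPM in 3 libraries and 0.0073 with only the compared groups, and TERF2 reached -0.0011 with the replicate block. In the combination against DMSO, TERF2 reached 0.012 and TERF2IP 0.013 with upper-quartile scaling. With single libraries left out, POT1 ran from -0.069 to 0.0043 and TERF2 from -0.032 to 0.046 in MI-503 against DMSO, and WRAP53 from -0.11 to 0.045 and TERF1 from -0.0060 to 0.13 in the combination against MI-503. CPM differences from DMSO with single libraries left out ran from -0.0165 to 0.0600 (TERC) and -0.0347 to 0.0198 (TINF2) in MI-503 and from 0.0219 to 0.112 and -0.0352 to 0.0313 in the combination. TERC in MI-503 without DMSO replicate 2 reached an exact permutation p of 0.0286, the smallest this design allows.

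Replicate numbers were shared between groups. Same-numbered libraries deviated together with r from -0.10 to 0.14 over 10 pairs, 1 of them above 0.1. A library correlated best with its own number in 7 of 20 cases. TERT itself was highest in replicate 2 of each group, at 36.0 CPM in DMSO, 24.9 in MI-503 and 9.13 in the combination. These values do not settle whether same-numbered libraries were handled together. With the replicate block 5 members, TERT added, were called lower in MI-503 against DMSO, and the counts in the other comparisons did not change. Depth limits TERC and TINF2, at 0 to 5 counts per library, and RTEL1, counted on 471 bases.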
